A study of Homo sapiens with 34 samples.

Results

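An alternative 5-prime splice site event is an exon whose end can be joined to the same downstream exon from more than 1 position, so that the exon is longer or shorter. The sites described here were taken from a splicing table of RPE-1 cells. A site was kept when its event had 20 or more reads in each of the 4 control libraries and its mean PSI in these 4 lay between 5 and 95. PSI is the percentage of the event's reads that use that site, and sites of an event are numbered from the shortest exon to the longest. The rule kept 2641 sites of 1312 events in 1203 genes, out of 133288 alternative 5-prime rows, 46918 of which had the reads. The sites were thus chosen by control PSI and reads, so control levels are descriptions. The same 4 libraries are the reference of every comparison with controls below, which is therefore not independent of the rule. At the lower limit GBP3 site 1 lay just inside (control mean 5.00) and PSMB10 site 2 just outside (4.995). At the upper limit GBP3 site 2, its mirror image, lay inside, and PSMB10 site 1 lay outside (95.005). At the limit on reads ALKBH3 was kept with 20 reads in its shallowest control library and ATXN2L was not, with 19. Of the 1312 events, 1178 contributed 2 sites, 71 contributed 3, 3 contributed 4 and 60 contributed 1. The 2 sites of a pair are mirror images of each other and are not independent measurements.

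The study used hTERT RPE-1, a telomerase-immortalised human retinal pigment epithelium line, in which all groups carried Cas9 and Cas12a and received a hybrid guide RNA (hgRNA) that holds a guide for each nuclease. The 34 libraries form 17 hgRNA groups of 2 biological duplicates. The controls were 2 hgRNAs that delete intergenic sequence (4 libraries). Deletions were made with 2 hgRNAs each (4 libraries each) within an intron of DDX5, across an exon carrying a premature stop codon (PTC exon) of DDX17 and of HDAC7, and in FNBP4 in an intron (hgRNAs 1 and 2) and across a PTC exon (hgRNAs 3 and 4). The titles call all these deletions intronic, and the PTC exons are given by the treatment label. A single hgRNA deleted a part of HNRNPD (2 libraries). Knockouts of DDX5, DDX17, FNBP4 and HDAC7 (2 libraries each) joined an exonic Cas9 guide to an intergenic Cas12a guide, per the labels. The 2 HDAC7 deletion hgRNAs share their Cas9 guide, as do FNBP4 hgRNAs 2 and 3. The label of the HDAC7 knockout lists the same Cas9 guide as that of the FNBP4 knockout and repeats it as its Cas12a guide, so its libraries are called by their label here. Cells were infected at low multiplicity, kept in 20 µg/ml puromycin for 72 h and then grown for 4 days; the labels describe no cloning step, so each library is taken as a cell population.

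As background, the end of an exon is first recognised by the U1 small nuclear ribonucleoprotein (snRNP), whose RNA pairs with the last bases of the exon and the first bases of the intron. Nearly all sites begin the intron with GT, and pairing of the flanking bases sets how strong a site is. The site is then handed from U1 to U6 within the assembling spliceosome, and SR proteins, hnRNPs and DEAD-box helicases such as DDX5 and DDX17 bias the choice between neighbouring sites. A shift by a multiple of 3 bases keeps the reading frame. In a 5-prime untranslated region (5' UTR) such a shift changes the leader of the mRNA and leaves the protein as it is.

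The bases at the sites on which the results turn are shown here, on GRCh38 and read 5′ to 3′ in GENCODE transcripts, with the first 2 bases of the intron in capitals. They are the shorter-exon sites of 5 genes with called differences in their 5' UTR.
GAPDH site 1 (chr12:6534567-6534575, plus strand): cagGTgaag
FHL2 site 1 (chr2:105398964-105398972, minus strand): gccGTgagt
C11orf24 site 1 (chr11:68271851-68271859, minus strand): cggGTaagg
CTSL site 1 (chr9:87726251-87726259, plus strand): tagGTgtgc
C4orf48 site 1 (chr4:2042066-2042074, plus strand): gcgGTaagg
The next stretches lie in coding sequence or cross 2 sites of 1 exon, and show how close the competing sites are. CNBP differed between the FNBP4 deletions, DDX3X differed between duplicates of 9 groups, and CHD4 and RPS16 had small ranges.
CNBP sites 1 and 3 (chr3:129171625-129171678, minus strand): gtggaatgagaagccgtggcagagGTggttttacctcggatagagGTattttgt
DDX3X sites 1 and 2 (chrX:41346387-41346423, plus strand): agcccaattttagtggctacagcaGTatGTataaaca
CHD4 sites 1 and 2 (chr12:6581029-6581067, minus strand): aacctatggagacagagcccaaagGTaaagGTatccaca
RPS16 sites 1 and 2 (chr19:39435598-39435681, minus strand): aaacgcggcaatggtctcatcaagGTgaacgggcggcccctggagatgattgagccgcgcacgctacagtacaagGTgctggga
In CNBP the sites are 21 bases apart, in DDX3X 4 and in CHD4 6.

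Libraries held 55508070 to 88982346 reads over all events of the table and 105669 to 162302 at the chosen events, with a median of 40 to 67 reads per event. All 2641 sites had 20 reads in the 4 controls by the rule, and 2045 to 2589 had them in an edited library, fewest in FNBP4 deletion hgRNA 3 replicate 1. With 20 reads in all 34 libraries, 1517 sites of 758 events remained. The differences between duplicates correlated among control hgRNA 1, DDX17 deletion hgRNA 1 and HDAC7 deletion hgRNA 1 (0.164 to 0.327 over 11566 events), which does not tell which duplicate deviated. Results were also computed without replicate 2 of these 3 groups, called the 3 replicate 2 libraries below. In the authors' deposited expression table (RPKM, reads relative to transcript length and library depth) KRT8 and KRT18 were high, MITF (9.14) and OTX2 (6.39) were present, and the pigment epithelium genes RPE65 (0.05), RLBP1 (0.03), TTR (0) and TYR (0) were at or near 0 in controls. Of the other pigment epithelium genes examined, BEST1 was at 1.96 in controls and 0.12 to 1.96 over the groups, and PMEL at 0.19 in controls. The summed RPKM of 9 markers of other cell types was 0.29 in controls and 0.16 to 0.83 over the groups. In that table DDX5 fell by 1.85 on the log2 scale in its knockout and DDX17 by 0.56 in its own. FNBP4 differed by -0.25 in its knockout (FDR 0.747) and HDAC7 by -0.08 in the libraries labelled as its knockout (FDR 0.934), while FNBP4 rose by 1.61 and 1.27 with hgRNAs 3 and 4.

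The PSI values include a correction by the authors' splicing tool for how many positions of a junction can be mapped, and for most sites it changed little. The shift between the corrected and the uncorrected control percentage was under 1 point for 2035 sites (77.05%). It was 10 points or more for 126 sites of 66 events. For 54 sites it raised the reads by 2-fold or more, up to 17.74-fold for CIC site 2, and 88 sites of 50 events would lie outside 5 to 95 without it. Of 43 sites whose uncorrected share was under 5%, 18 were within 8 bases of another chosen site and 23 were not annotated. For sites that the correction moved, both values are given where a result rests on them.

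**Figure D1:**
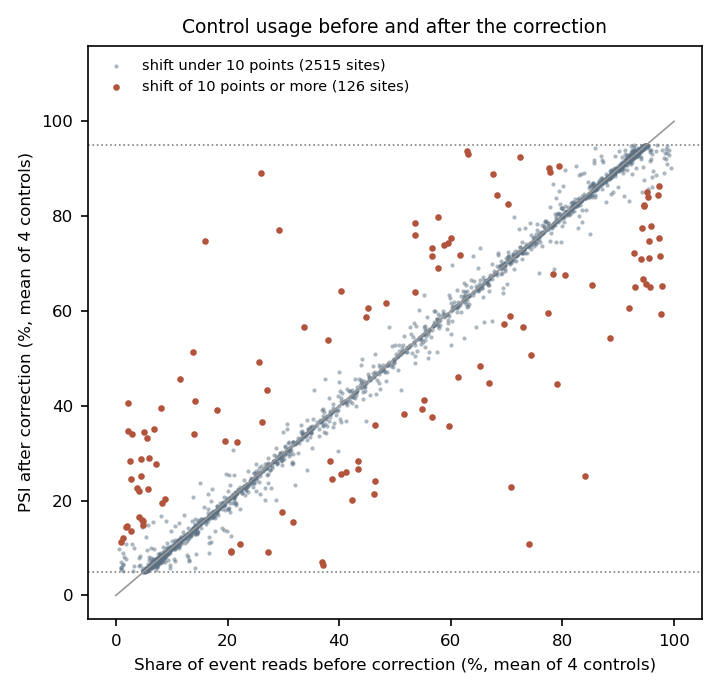
Mean usage of the 2641 sites in the 4 control libraries, before (x axis, percent of reads) and after (y axis, PSI in percent) the authors' correction. Dotted lines mark the limits of 5 and 95, the grey line marks equality, and the 126 sites that shifted by 10 points or more are in red.

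Coding sequence held the largest share of the chosen sites, and close pairs were common. By GENCODE, 1190 sites (45.1%) ended an exon in coding sequence, 753 (28.5%) in the 5' UTR and 36 (1.36%) in the 3' UTR, 281 (10.6%) lay in noncoding or other transcripts, and 381 (14.4%) were not annotated. The junction itself was annotated for 2164 sites (81.9%), and for 84 (3.18%) only in transcripts marked as targets of nonsense-mediated decay. In the 1178 events with 2 chosen sites, these lay 1 to 474 bases apart with a median of 35 (quartiles 12 and 96). The commonest distance was 4 bases (90 events, 7.64%), ahead of 6 (44), 9 (37) and 12 (35). The longer exon was the major form in 580 events (49.2%), so neither end was favoured in number. Where only 1 of the 2 junctions was annotated (385 events), it was the major one in 362 (94.0%).

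Spacing differed with the annotated place in the gene. Place was taken only from transcripts typed as protein-coding, so sites found only in other transcripts, or not annotated, form no coding pair. That choice can itself favour multiples of 3 among coding pairs, and its part was not tested. Of 314 pairs with both sites in coding sequence 246 (78.3%) were a multiple of 3 bases apart, with a median distance of 26. Of 241 pairs with both sites in the 5' UTR 72 (29.9%) were, with a median distance of 56, and 4 bases was the distance of 20 of them (8.30%), against 8 coding pairs (2.55%). Among rows of events that list only 2 sites, a multiple of 3 separated 46.0% of the 650 chosen events and 33.5% of the 13511 that had the reads but a control PSI outside the limits. These shares describe the sites and no test was made on them.

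**Figure D2:**
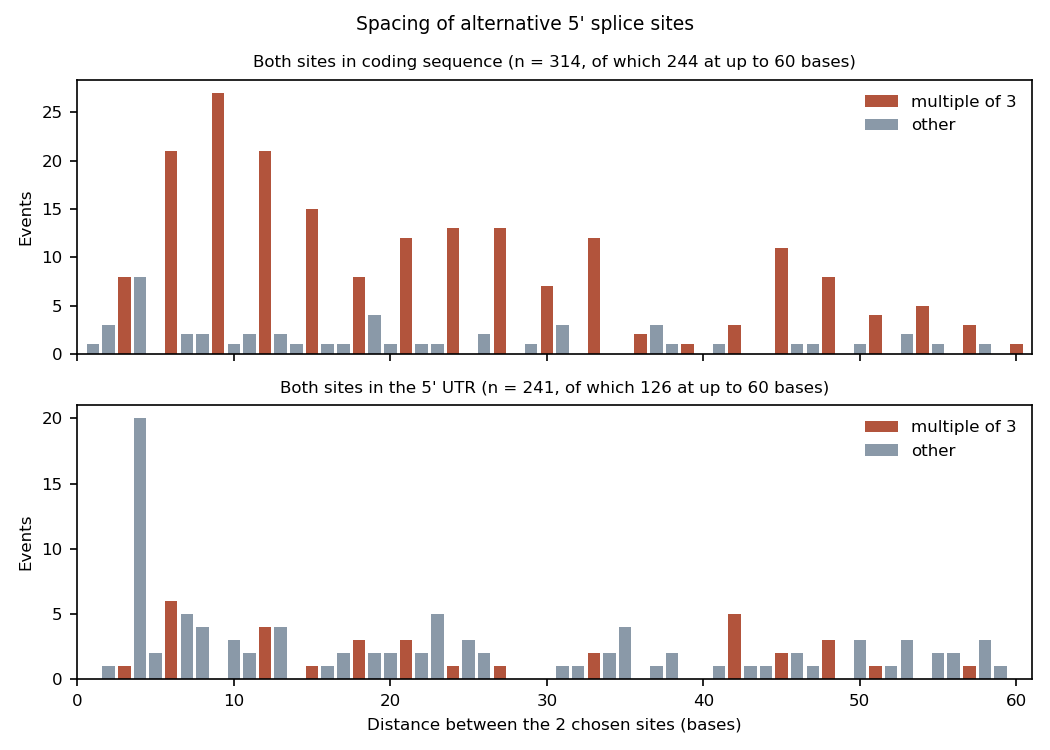
Distance in bases between the 2 chosen sites of an event (x axis) against the number of events (y axis), for pairs in coding sequence (upper panel) and in the 5' UTR (lower panel), up to 60 bases. Multiples of 3 are in red: they make up 78.3% of all coding pairs and 29.9% of all 5' UTR pairs. Both kinds of pair are taken from transcripts typed as protein-coding.

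The bases around the site could be read from transcripts for 1445 sites. The intron began with GT at 1381 (95.6%), with GC at 60 (4.15%), with AT at 3 and with TT at 1. The fifth intron base, which pairs with U1, was G at 66.7% of the GT sites. It was G at 71.3% of the 641 that were the major site of their event and at 62.7% of the 740 that were not. Sites are read here only where a transcript continues past them, and 1223 of the 1445 were shorter than the longest site of their event.

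The range over the 17 groups is given here beside the scatter of duplicates. Over the 758 events with reads everywhere, the range of the 17 group means (largest difference per event) ran from 2.50 to 69.3 points with a median of 12.5. It was under 10 points in 265 events (34.96%) and under 20 in 608 (80.21%). The median range was 14 points for 201 events in the 5' UTR and 11.6 for 367 in coding sequence. Duplicates of a group differed by a median of 3.25 to 5.03 points, and by 10 points or more in 11.7% to 23.6% of events, most in DDX17 deletion hgRNA 1, FNBP4 deletion hgRNA 3 and HDAC7 deletion hgRNA 1. The median shift of the longest site of an event from the controls ran from -0.72 to 0.59 points over libraries. With stretches between the sites under 45% GC (59 events) it was -5.31 in HDAC7 deletion hgRNA 1 replicate 2 and -3.16 in DDX17 deletion hgRNA 1 replicate 2; the part of base composition in the results was not tested.

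A test over the 15 edited groups, which leaves out the control values that chose the sites, asked which sites differ between hgRNAs beyond their duplicates. It called 17 of 1517 sites (1.12%) in 10 of 758 events at an adjusted p under 0.05 and a range of 10 points. Of all 213928 events tested 0.105% were called. Most of those events hardly vary, so that share is not one of events with a like PSI. The 10 events lie in GAPDH, SH3BP5L, FAM120A, C11orf24, CIC, FHL2, DLG1, IFITM10, CNBP and RPL19. Of the 10 events 6 (60%) have a site in the 5' UTR, as do 258 of the 758 tested and 453 of all 1312 (34.5%). In CNBP only site 3 was called (adjusted p = 0.0454) and in IFITM10 only site 1 (0.0427). The sites of these genes described further below were not called in this F test: CNBP site 1 (0.0593) and IFITM10 site 3 (0.0526). With site reads before the correction 21 sites of 11 events were called, against 0.107% of all events: CIC and FAM120A were not among them, and FLII, STYXL1 and ACADVL were. DLG1, a scaffold protein of cell junctions, ranged from 64.4 in the HNRNPD deletion to 77.2 in DDX17 deletion hgRNA 1 at site 2 (adjusted p = 0.0193). RPL19, a protein of the large ribosomal subunit, ranged from 74.3 in DDX5 deletion hgRNA 1 to 97.4 in FNBP4 deletion hgRNA 3 at site 1 (adjusted p = 0.0465).

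GAPDH, the glycolytic glyceraldehyde-3-phosphate dehydrogenase, gave the smallest p of the 1517 sites. Its 2 chosen sites lie in the 5' UTR, 92 bases apart, and are joined to the same acceptor. PSI of the longer site 2 was 12.0 and 4.22 with control hgRNA 1 and 5.68 and 17.6 with control hgRNA 2. It was 29.03, 23.9, 33.3 and 25.5 in the DDX5 deletion and 23.1, 24.1, 22.1 and 27.8 in the DDX17 deletion. In FNBP4 it was 27.0, 26.1, 30.8 and 24.9 with the intron deletion and 29.6, 18.5, 24.0 and 23.3 with the PTC exon deletion. All these libraries lay above the 4 controls. In the HDAC7 deletion it was 8.90 and 10.4 with hgRNA 1 and 34.96 and 21.5 with hgRNA 2, and the HNRNPD deletion had 4.74 and 3.72. Among knockouts it was 27.6 and 26.3 for DDX5, 11.1 and 10.5 for DDX17, 23.9 and 22.7 for FNBP4, and 34.9 and 31.5 under the HDAC7 label. By these values the HNRNPD deletion, HDAC7 deletion hgRNA 1 and DDX17 knockout did not exceed the controls, and the other 12 edited groups did. The 2 sets were drawn from the same values, so their separation is no test. Their nearest libraries were at 17.6 (control hgRNA 2) and 18.5 (FNBP4 PTC exon deletion).

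The reads behind these GAPDH values differed at site 1. Uncorrected reads at site 2 were between 44 and 87 in all 34 libraries. At site 1 they were 337 to 1180 in the controls, 1164 and 1508 in the HNRNPD deletion, 497 and 727 in HDAC7 deletion hgRNA 1 and 520 and 697 in the DDX17 knockout. In the other 24 libraries they were 110 to 267. The correction left the GAPDH values as they were (9.88 against 9.88% for site 2 in controls). In the authors' deposited table GAPDH was at 2097 RPKM in controls and 1646 to 2458 in the edited groups, with no FDR under 0.05. GAPDH has many near-identical processed pseudogenes, so how reads were shared among copies is uncertain.

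FHL2 and C11orf24 were also lowest in the HNRNPD deletion. FHL2 encodes a LIM-domain scaffold protein. Its longer site 2, 128 bases beyond site 1 in the 5' UTR, had PSI of 69.6, 52.4, 64.7 and 79.0 in the controls. It was 91.6, 91.0, 92.9 and 86.7 in the DDX5 deletion, 96.9, 81.4, 91.0 and 87.7 in the FNBP4 PTC exon deletion, and 91.4 and 97.4 under the HDAC7 knockout label. These 10 libraries lay above all controls, as did those of the FNBP4 intron deletion (80.2 to 85.4) and the FNBP4 knockout (83.7 and 86.7). In the DDX17 and HDAC7 deletions and the DDX5 and DDX17 knockouts not all libraries did. The HNRNPD deletion was lowest, at 50.4 and 62.5. FHL2 libraries held 320 to 857 reads, the deepest of the 3 genes at its lower end.

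C11orf24 site 3, 211 bases beyond site 1, had PSI of 33.6, 14.9, 17.04 and 34.8 in the controls. It was 70.3, 61.4, 66.3 and 57.3 in the DDX5 deletion, 75.3 and 65.5 in the DDX5 knockout, and 56.9 and 71.4 under the HDAC7 knockout label. All libraries of the FNBP4 intron deletion (40.2 to 65.9), FNBP4 knockout (50.5 and 52.5) and DDX17 knockout (35.2 and 48.4) also lay above the controls. In the DDX17 and HDAC7 deletions not all did. The HNRNPD deletion was again lowest, at 12.4 and 22.8. In the FNBP4 PTC exon deletion hgRNA 3 gave 67.3 and 60 and hgRNA 4 gave 42.1 and 25.4, so its 2 hgRNAs did not overlap. C11orf24 RPKM was lower with both of these hgRNAs in the authors' deposited table (log2 fold changes of -0.85 and -0.80, FDR 1.71e-08 and 1.57e-07). In the test over the 15 edited groups the adjusted p was 6.90e-06 for GAPDH site 2, 0.00371 for C11orf24 site 3 and 0.0160 for FHL2.

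**Figure D3:**
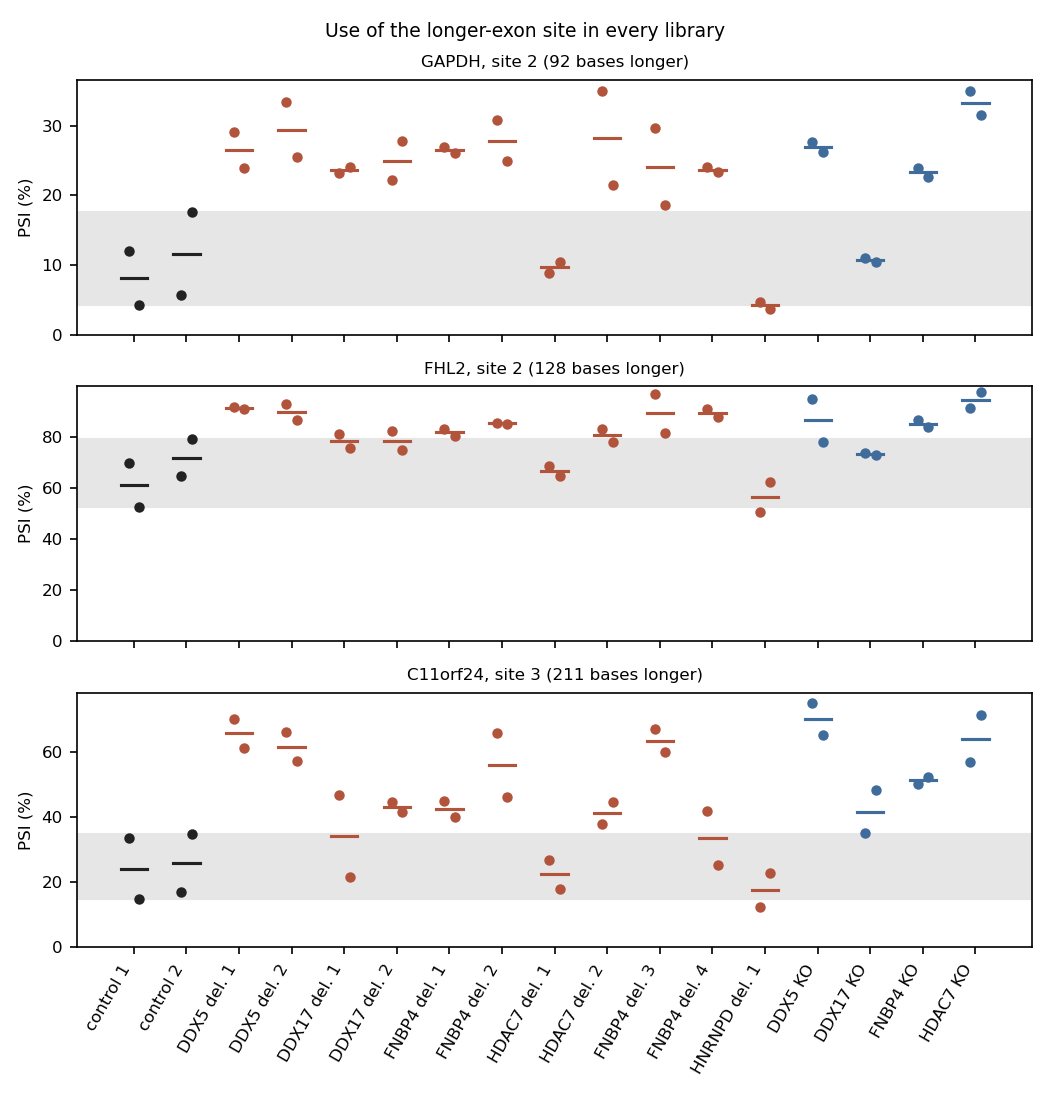
PSI in percent (y axis) of the longer-exon site of GAPDH, FHL2 and C11orf24 in every library, by hgRNA group (x axis; del. is deletion, KO is knockout). Dots are libraries, bars are group means, and the grey band is the range of the 4 controls. The HNRNPD deletion is lowest in each panel, and 12 edited groups lie above the band for GAPDH.

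Each target was next compared with the 4 control libraries, asking which sites its deletion or knockout moves. A site was called at an adjusted p under 0.05 and a difference of 10 points or more. All 10 comparisons share these controls, whose spread was wide for GAPDH, FHL2 and C11orf24, so the same site in several comparisons is not independent evidence. The labels call the duplicates biological without saying how they were separated. The p-values rest on the spread between duplicates of the same hgRNA, pooled over all libraries. Differences between hgRNAs of the same target, or between the control hgRNAs, do not enter that spread.

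In the DDX5 deletion 7 of 2279 sites, in 4 events, were called (0.0334% of all events tested). Most events of the table hardly vary. Among rows with a control PSI from 5 to 95, as the rule asks here, 0.55% of exons, 0.378% of introns and 0% of alternative 3-prime sites were called. Of the chosen sites 0.307% were. Over the 10 comparisons with controls the shares of such rows were 0 to 0.812% for exons and 0 to 0.378% for introns. They were 0 to 0.0791% for alternative 3-prime sites and 0 to 0.462% for the chosen sites. C11orf24 site 3 rose from 25.1 to 63.8 (2.45 ± 0.42 SE as a log2 ratio of site reads to other reads, adjusted p = 0.00168). GAPDH site 2 rose from 9.88 to 27.9 (2.03 ± 0.32, adjusted p = 0.000518). Both calls held when any 1 library was left out and without the 3 replicate 2 libraries. FHL2 site 2 rose from 66.4 to 90.6 (adjusted p = 0.00639), and its adjusted p was 0.0690 without these 3. When a single library was left out it was 0.0777 (control hgRNA 1 replicate 2), 0.0864 (control hgRNA 2 replicate 1) and 0.0510 (DDX5 deletion hgRNA 2 replicate 1).

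CTSL, the lysosomal protease cathepsin L, fell at site 1 from 35.1 to 15.8 in the DDX5 deletion (adjusted p = 0.0347). Its controls were 30.3, 51.3, 29.8 and 28.9, and the deletion libraries 20.99, 12.7, 16.9 and 12.7. The groups do not overlap, and control hgRNA 1 replicate 2 was far above the other 3. Without that library the difference was smaller (adjusted p = 0.270), and only 2 of 8 fits that left out a library kept the call: those without control hgRNA 1 replicate 1 and DDX5 deletion hgRNA 1 replicate 1. The call was also lost in a quasi-binomial model (0.129). The DDX5 knockout had 27.3 and 26.7, close to the 3 lower controls.

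In the DDX5 knockout 4 of 2293 sites, in 2 events, were called (0.00865% of all). C11orf24 site 3 rose to 70.4 (2.87 ± 0.51, adjusted p = 0.0119). GAPDH site 1 fell from 90.0 to 72.6 (adjusted p = 0.0314). C11orf24 kept its call without the 3 replicate 2 libraries (adjusted p = 0.0392) and GAPDH did not (0.0908), nor with the spread of its own libraries only (0.105). Leaving out a single library raised C11orf24 to at most 0.139 and GAPDH to at most 0.197. The libraries whose omission ended both calls were control hgRNA 1 replicate 2, control hgRNA 2 replicate 1 and DDX5 knockout replicate 1; for GAPDH also DDX5 knockout replicate 2.

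GAPDH was also called in the DDX17 deletion and in both FNBP4 deletions. In the DDX17 deletion 2 of 2033 sites, in 1 event, were called (0.00411% of all). GAPDH site 1 fell from 90.0 to 75.2 (-1.79 ± 0.32, adjusted p = 0.0240), and its adjusted p was 0.278 without the 3 replicate 2 libraries and 0.774 with the spread of its own libraries only. It was also above 0.05 without control hgRNA 1 replicate 2 (0.277), control hgRNA 2 replicate 1 (0.332) or either replicate of DDX17 deletion hgRNA 2 (0.0532 and 0.0881). In the FNBP4 intron deletion 2 of 2386 sites, in 1 event, were called (0.00175% of all). GAPDH site 2 rose to 27.2 (1.98 ± 0.31, adjusted p = 0.00777), with 0.0898 without the 3 replicate 2 libraries. That call too was lost without control hgRNA 1 replicate 2 (0.143) or control hgRNA 2 replicate 1 (0.134). FOXN2, a forkhead transcription factor, gave the smallest p not called there: its unannotated site 3 was at 56.2, 65.5, 55.9 and 62.4 against 35.6, 16.02, 30.7 and 29.4 in the controls (adjusted p = 0.220, 22 to 44 reads). Its groups did not overlap.

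In the FNBP4 PTC exon deletion 8 of 1990 sites, in 4 events, were called (0.0284% of all). FHL2 site 2 rose to 89.2 (2.24 ± 0.44, adjusted p = 0.00891) and GAPDH site 1 fell to 75.7 (-1.73 ± 0.32, adjusted p = 0.00533). WDR37, a WD-repeat protein, rose at site 2 from 83.2 to 98.4 (adjusted p = 0.0389). FLII, an actin-binding protein of the gelsolin family, fell at site 3 from 28.3 to 12.0 (adjusted p = 0.0310). No call of the 4 held without the 3 replicate 2 libraries: the adjusted p was then 0.0752 for FHL2, 0.0608 for GAPDH, 0.153 for WDR37 and 0.146 for FLII. None of the 4 was called with the spread of their own libraries only. In the quasi-binomial model FHL2 and GAPDH were called, while WDR37 and FLII were not. With a pseudocount of 0.5 the WDR37 call was lost (adjusted p = 0.0513). Control hgRNA 1 replicate 2, which is among the 3 replicate 2 libraries, ended each of the 4 calls when left out alone. So did control hgRNA 2 replicate 1 and FNBP4 hgRNA 3 replicate 1 for FHL2, GAPDH and WDR37, FNBP4 hgRNA 4 replicate 1 for FHL2, WDR37 and FLII, and control hgRNA 2 replicate 2 and FNBP4 hgRNA 3 replicate 2 for WDR37 and FLII. FNBP4 hgRNA 4 replicate 2 ended that of FLII. The highest adjusted p of these fits was 0.123 for FHL2, 0.094 for GAPDH, 0.266 for WDR37 and 0.195 for FLII.

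WDR37 and FLII rest on fewer reads. WDR37 site 2 was at 100, 100, 100 and 93.8 in the PTC exon libraries and at 85.7, 72.7, 83.0 and 91.5 in the controls, with 25 to 43 reads. It was also at 100 in all 4 DDX17 deletion libraries (22 to 32 reads) and in both DDX17 knockout libraries (36 and 40), where it was not called (adjusted p = 0.105 and 0.153). Before the correction the controls had 91.9% at that site, and the PTC exon difference of 7.43 points was not called (adjusted p = 0.0731). The correction lowered FLII site 3, which had 43.3% of the reads in the controls and 19.96% with the PTC exon deletion before it (difference of -23.34 points, adjusted p = 0.0105). After it FLII site 3 was at 4.00 and 0 with hgRNA 3 and at 22.5 and 21.6 with hgRNA 4, against 21.8, 31.2, 21.4 and 39.0 in the controls. Its 2 hgRNAs did not overlap, and hgRNA 4 lay within the control range.

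The HDAC7 deletion called 0 of 2186 sites by limma (0.000382% of all events) and the HNRNPD deletion 0 of 2452 (0.00348%). In the HDAC7 deletion 97 sites had an unadjusted p under 0.05 (4.44%, and 7.28% of all events). In the HNRNPD deletion 162 had (6.61%, and 8.46% of all events). A quasi-binomial model called 0 sites in the HDAC7 deletion and in the DDX17 knockout and 2 in the HNRNPD deletion. For counts in this paragraph under that model, or with the spread of own libraries only, no share of all events is given. They do not tell a change at these sites from one over all events. Among the smallest p in the HNRNPD deletion was PLEKHA1, which binds phosphoinositides, with site 2 at 100 and 100 against 85.7, 87.5, 95.1 and 90 in the controls (adjusted p = 0.217). The DDX17 knockout called 0 of 2365 (0.0142%), and 2 with the spread of its own libraries only. There 143 sites had an unadjusted p under 0.05 by limma in the main fit (6.05%, and 6.43% of all events). In the FNBP4 knockout 2 of 2238 sites, in 1 event, were called (0.026% of all, and 0.0253% with site reads before the correction). GAPDH site 1 fell to 76.4 (-1.70 ± 0.39, adjusted p = 0.0491). The call ended under a pseudocount of 0.5 (0.0507), with a minimum of 50 reads (0.0538), with the spread of its own libraries only (0.161), without the 3 replicate 2 libraries (0.152), and without control hgRNA 1 replicate 2 (0.234), control hgRNA 2 replicate 1 (0.273) or either knockout library (0.318 and 0.0861). STYXL1, a pseudophosphatase, had site 2 at 0.69 and 0.70 there against 4.41, 10.4, 10.4 and 3.02 in the controls, which was not called (adjusted p = 0.104).

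In the libraries labelled HDAC7 knockout 10 of 2166 sites, in 5 events, were called (0.0156% of all; 0.016% with site reads before the correction). GAPDH site 1 fell to 66.5 (-2.40 ± 0.39, adjusted p = 0.00286), in every fit that left out a library. FHL2 site 2 rose to 94.4 (3.21 ± 0.54, adjusted p = 0.00352), a call lost only without HDAC7 knockout replicate 2 (0.103). C11orf24 site 1 fell from 74.3 to 34.9 (-2.49 ± 0.51, adjusted p = 0.0166). These 3 calls held without the 3 replicate 2 libraries. For C11orf24 the call was lost without control hgRNA 1 replicate 2 (0.110), control hgRNA 2 replicate 1 (0.135) or HDAC7 knockout replicate 2 (0.188), and with the spread of its own libraries only (0.0595).

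C4orf48 site 2, in its 5' UTR 107 bases beyond site 1, rose from 23.1 to 53.8 under the HDAC7 knockout label (1.93 ± 0.43, adjusted p = 0.0282). The controls had 23.2, 19.3, 20.7 and 29.2 and the 2 labelled libraries 50.0 and 57.6, the latter from 33 reads. The other edited libraries lay between 15.2 and 47.5. The adjusted p was 0.0710 without the 3 replicate 2 libraries. With single libraries left out it was 0.121 (control hgRNA 1 replicate 2), 0.169 (control hgRNA 2 replicate 1), and 0.108 and 0.179 (either labelled library). It was 0.0563 with the spread of its own libraries only and 0.135 in the quasi-binomial model. In the authors' deposited table C4orf48 RPKM differed by -1.15 on the log2 scale in that group (FDR 0.174) and was lower in the DDX5 deletion (log2 fold changes of -1.38 and -1.48, FDR 0.0494 and 0.0433).

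The 2 FNBP4 deletions were compared with each other, a contrast whose difference uses no control value. The sites tested are those the rule chose, and the controls enter through the shared spread. FNBP4 RNA rose with the PTC exon deletion (values above) and differed by 0.30 and 0.29 on the log2 scale with the intron deletion (FDR 1 and 1). Of 1939 sites 6, in 3 events, were called (0.0363% of all events tested, and 0.0377% with site reads before the correction), in CNBP, SH3BP5L and IFITM10. In all 3 the libraries of the 2 deletions did not overlap. Among rows with a mean PSI from 5 to 95 in the reference libraries, 1.16% of exons, 0.263% of introns and 0.118% of alternative 3-prime sites were called. Of the chosen sites 0.309% were.

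CNBP, a zinc-finger protein that binds single-stranded nucleic acids, had the smallest p of the 3. Its site 1, the shorter by 21 coding bases, had PSI of 34.3, 38.1, 41.0 and 38.2 with the PTC exon deletion. It was 50.0, 46.8, 49.2 and 46.8 with the intron deletion and 45.7, 46.9, 45.2 and 46.8 in the controls. The 4 PTC exon libraries were the lowest of all 34, and the nearest others were the DDX5 knockout at 41.8 and 42.0. The event was deep, with 394 to 1011 reads per library. Site 1 was 10.3 points lower than with the intron deletion (-0.61 ± 0.10, adjusted p = 0.000842). The difference ranged from 9.38 to 11.3 points when a library was left out. It passed under the limit of 10 points, with adjusted p from 0.0073 to 0.0127, without FNBP4 hgRNA 1 replicate 1, hgRNA 2 replicate 1, hgRNA 3 replicate 1 or hgRNA 4 replicate 2. In a quasi-binomial model of the reads the CNBP call was lost (adjusted p = 0.245). CNBP RPKM was 139 in controls and 133 and 127 with hgRNAs 3 and 4 in the authors' deposited table.

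SH3BP5L, a relative of the RAB11 exchange factor SH3BP5, used its site 3 at 0, 2.00, 3.04 and 2.43 with the PTC exon deletion. The site is not annotated and lies 135 bases beyond site 1. It was at 14.7, 11.7, 10.2 and 17.3 with the intron deletion and 7.79, 1.26, 5.50 and 7.02 in the controls, which overlap the PTC exon libraries and lie below the intron ones. The difference was -11.6 points (-2.41 ± 0.45, adjusted p = 0.00318). It was 9.82 points, under the limit, without FNBP4 hgRNA 2 replicate 2 (adjusted p = 0.0329), and the call was lost in the quasi-binomial model (0.577). The values rest on 0 to 2 reads at the site with the PTC exon deletion and 10 to 21 with the intron deletion, of 61 to 139 in all. Across the other groups site 3 was highest in the DDX5 knockout (17.9 and 16.5) and lowest in the HNRNPD deletion (0.82 and 1.78), with the DDX17 deletion at 12.6 to 16.9 and the DDX17 knockout at 3.41 and 3.16. SH3BP5L RPKM fell by 0.44 and 0.38 on the log2 scale with hgRNAs 3 and 4 (FDR 0.0113 and 0.0473).

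IFITM10, a member of the interferon-induced transmembrane family, used the unannotated site 3 at 12.5, 9.53, 8.06 and 7.12 with the PTC exon deletion. It was 22.8, 20.9, 24.8 and 20.9 with the intron deletion and 17.7, 22.6, 19.1 and 17.02 in the controls. The PTC exon libraries lay below both sets. The difference between the deletions was -13.0 points (-1.52 ± 0.32, adjusted p = 0.0115), and the adjusted p was 0.0600, 0.0603 and 0.0596 without FNBP4 hgRNA 1 replicate 1, hgRNA 2 replicate 1 or hgRNA 4 replicate 2. Its RPKM was 14.9 and 13.6 with the intron deletion and 26.6 and 28.0 with the PTC exon deletion, and 26.65 in the controls, whose PSI lay above that of the PTC exon deletion. It was 10.99 in the DDX5 knockout and 6.82 under the HDAC7 knockout label, where PSI averaged 14.1 and 14.6, so level and PSI did not keep one order over the groups. In bulk libraries a lower level can come from fewer cells or from less RNA per cell, which cannot be told apart.

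**Figure D4:**
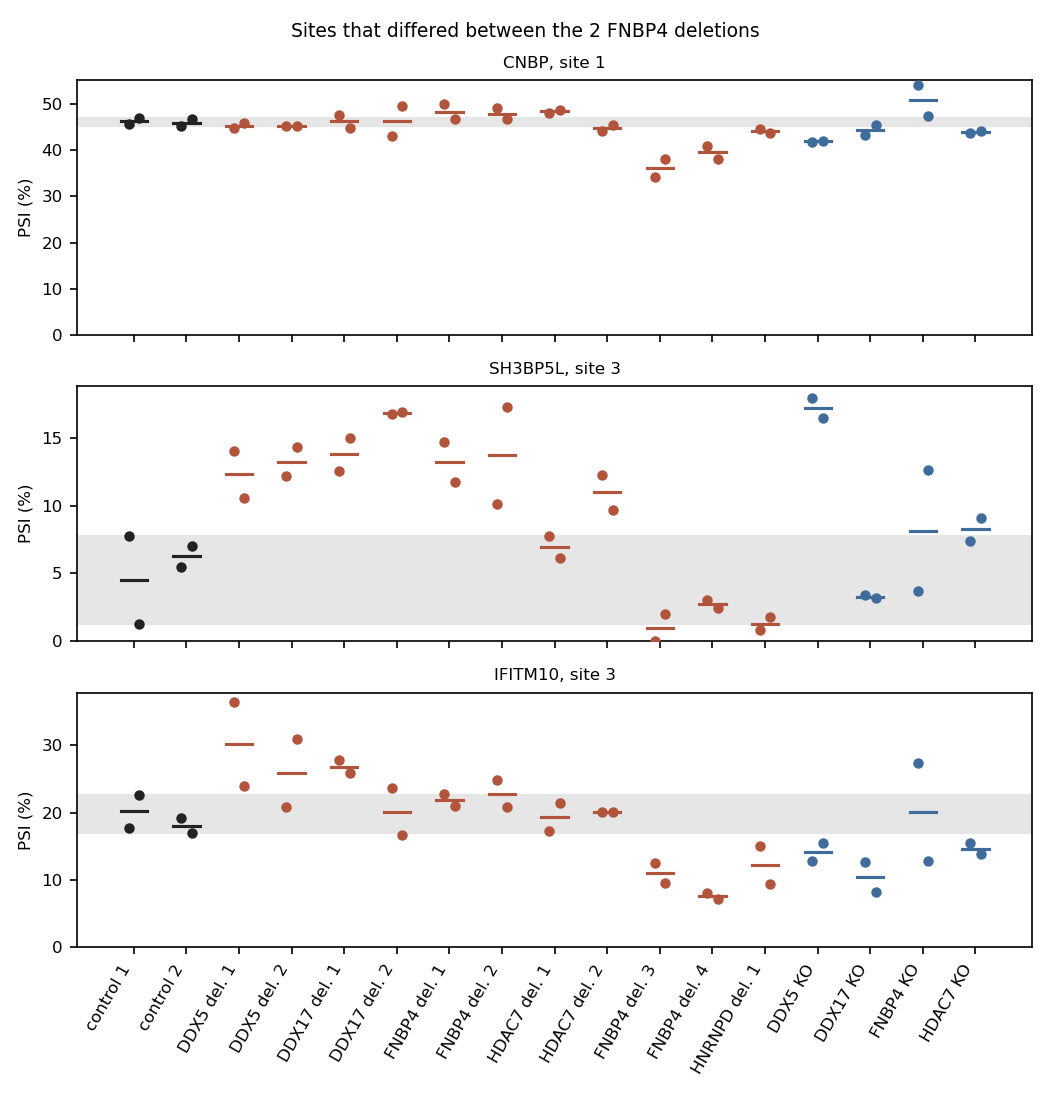
PSI in percent (y axis) of CNBP site 1, SH3BP5L site 3 and IFITM10 site 3 in every library, by hgRNA group (x axis; FNBP4 del. 1 and 2 are the intron deletion, 3 and 4 the PTC exon deletion). Dots are libraries, bars are group means, and the grey band is the range of the 4 controls. The 4 PTC exon libraries of CNBP lie between 34.3 and 41.0, below all others.

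The DEAD-box RNA helicase DDX3X, which acts in translation initiation, had a pattern set by library and not by group. Its chosen sites are the 4-base pair shown above, a distance that is not a multiple of 3, and the longer site 2 is not annotated. PSI of site 2 was 60.2 to 80.7 in 24 libraries, with 50 to 107 uncorrected reads at site 2 and 25 to 53 at site 1. In 9 libraries it was 0 to 0.49, with 0 or 1 read at site 2 and 24 to 53 at site 1. FNBP4 deletion hgRNA 2 replicate 1 lay between, at 37.0. The reads at site 1 overlapped, while those at site 2 were present or absent. The 9 libraries came from 9 groups, in each of which the other duplicate was at 37.0 or above, so that group means differed by 59.5 points and the test over the 15 edited groups gave an adjusted p of 0.860. All 4 controls were at 64.9 to 74.8. DDX3X has a close paralogue, so how reads were assigned is uncertain.

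**Figure D5:**
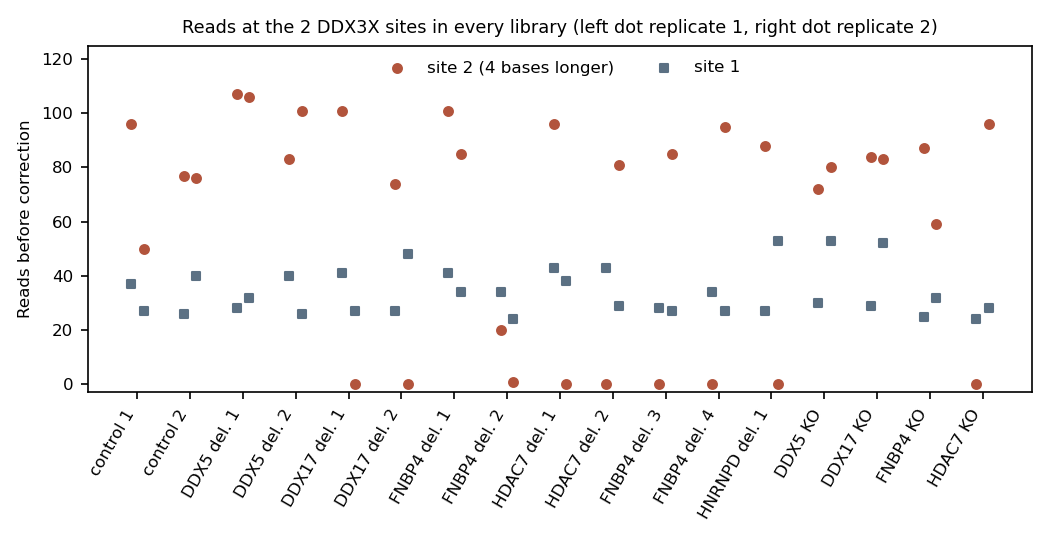
Uncorrected reads (y axis) at DDX3X site 1 (squares) and site 2 (dots) in each library by hgRNA group (x axis), replicate 1 at the left and replicate 2 at the right. Site 1 holds 24 to 53 reads in every library; site 2 holds 50 to 107 in 24 libraries and 0 or 1 in 9.

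Of the 5 events with the largest range, those of CIC, FAM120A and EPC1 hold a site that the correction raised from a few reads. CIC, a transcriptional repressor, ranged over 65.8 points at site 3 across the 15 edited groups. Its competing site 2, 6 bases upstream, had 7 uncorrected reads of 309 in the 4 controls (2.26%), which the correction made 40.6%. PSI of site 3 was 100 in both libraries under the HDAC7 knockout label against 54.9 to 64.1 in the controls, and it was called there (adjusted p = 0.0325). From uncorrected reads the difference was 2.26 points (adjusted p = 0.548), and no fit that left out a library kept the call. FAM120A, an RNA-binding protein, ranged over 69.3 points at site 4, beside a site 3 bases upstream with 9 of 399 control reads. EPC1, a subunit of a histone acetyltransferase complex, ranged over 46.9 points at site 3, beside a site with 5 of 120. The semaphorin receptor PLXNA3, among the smallest p not called in the DDX17 deletion (adjusted p = 0.153), had PSI of 22.8, 0, 0 and 22.4 at site 2 in the controls from 1, 0, 0 and 1 reads. PSI of CIC site 3 was 70.2 with 1 read at site 2 and 100 with none in the 2 libraries of DDX5 deletion hgRNA 1, which held 58 and 61 reads.

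Among the steadiest events were those of RPS16, SBDS and CHD4. RPS16, a protein of the small ribosomal subunit, had site 1 at 7.15, 5.34, 6.53 and 3.76 in the controls and 2.11 to 6.31 in the edited libraries. SBDS, which acts in maturation of the large ribosomal subunit, had site 2 at 94.2, 94.8, 94.1 and 92.8 in the controls and 92.4 to 97.4 elsewhere. CHD4, the ATPase of the NuRD chromatin remodelling complex, had site 2, 6 bases beyond site 1, at 6.88, 5.29, 7.28 and 6.58 in the controls and 3.45 to 8.39 elsewhere. These 3 were chosen for their small range and carry no test. RPS16 and SBDS have pseudogene copies, so their reads are uncertain in the same way.

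Of the 5 edited genes, DDX17 and HDAC7 hold chosen events. DDX17 site 2, 6 bases beyond site 1 in coding sequence, was at 23.5, 16.5, 20.0 and 18.01 in the controls. It was 19.7, 16.8, 18.3 and 24.3 in the DDX17 deletion, within or beside that range. The highest values were 28.97 and 34.1 in the HNRNPD deletion (12.0 points above the controls, adjusted p = 0.483) and 38.1 in FNBP4 deletion hgRNA 3 replicate 1, whose duplicate had 17.1. The DDX17 knockout left 15 and 41 reads at the event, under or near the limit, and no test. HDAC7 site 3, not annotated, was at 13.1, 12.3, 9.02 and 10.9 in the controls and 8.60, 7.87, 2.63 and 9.75 in the HDAC7 deletion (adjusted p = 0.832).

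Of 63 genes that act on 5-prime splice sites 10 held a chosen event: 4 of 19 U1 snRNP and associated genes, 5 of 29 regulators and 1 of 15 factors that take over the site from U1. Of their 20 sites 0 were called by limma in any of the 11 comparisons and 0 of 14 in the test over the edited groups. Of all chosen sites 0 to 0.462% and 1.12% were called there, so these counts of 0 are no result about the 63 genes. In TIA1, an RNA-binding protein that helps U1 at weak sites, site 2, 5 bases beyond site 1, was at 100, 100, 94.9 and 97.1 with the FNBP4 PTC exon deletion and at 95.2, 93.8, 93.0 and 83.6 with the intron deletion (adjusted p = 0.0596). SRSF5, an SR protein, had site 2 at 29.1 and 22.3 in the DDX5 knockout and 5.59, 11.5, 13.1 and 5.07 in the controls (adjusted p = 0.250). LUC7L3, a U1-associated protein, had site 2 at 85.0 and 76.7 in the FNBP4 knockout and 59.5 to 68.5 in the controls (adjusted p = 0.244). HNRNPK, an hnRNP, had site 2 at 56.6 and 48.4 under the HDAC7 knockout label and 36.7 to 46.1 in the controls (adjusted p = 0.630).

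RNA levels of these 63 genes, from the authors' deposited table, changed in few cases. A gene was counted where its FDR was under 0.05 with every hgRNA of a target. The DDX5 deletion had 0 higher and 2 lower, SRSF2 and SNRPA, where 1.67% and 2.7% of 22691 genes were higher and lower. The FNBP4 PTC exon deletion had DDX17 higher and PTBP1 and TXNL4A lower (2.75% and 3.38% of all genes). The DDX17 deletion, FNBP4 intron deletion and HDAC7 deletion had 0 in either direction. Of all genes 0.304% and 0.463% were higher and lower in the first, 0.19% and 0.383% in the second and 0.101% and 0.0485% in the third. The HNRNPD deletion had SNRPD1 lower (2.34% and 2.73% of all genes). The DDX5 knockout had DDX17 and SNRPD2 higher and DDX5, SRSF2 and TIA1 lower (3.51% and 2.67%). The FNBP4 knockout had DDX23, PRPF4, SRSF6 and SRSF7 higher (log2 fold changes of 0.28, 0.50, 0.59 and 0.55) and the SR protein kinases CLK1 and CLK4 lower (-1.35 and -1.15), with 3.42% and 3.38% of all genes. The HDAC7 knockout label had SNRNP40, SNRPD2 and SRSF7 higher and SRSF2 lower (2.09% and 2.17%), and the DDX17 knockout had DDX17 lower and none higher (0.67% and 0.811%). The median log2 fold change of the 63 genes lay between -0.08 and 0.15 over the targets.

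The RNA of genes that host the chosen sites was counted in the same way. Of 1151 with a value, 30 were higher and 40 lower in the DDX5 deletion, 44 and 70 in the FNBP4 PTC exon deletion, 39 and 40 in the HNRNPD deletion, 85 and 18 in the DDX5 knockout, 68 and 31 in the FNBP4 knockout, 43 and 24 under the HDAC7 knockout label and 15 and 11 in the DDX17 knockout. In the DDX17, FNBP4 intron and HDAC7 deletions they were 3 and 7, 1 and 6, and 1 and 3, beside the shares of all genes given above. The rule favours expressed genes through its read minimum, so these counts describe the hosts and no test was made.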

How the data were processed

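RNA of 34 RPE-1 libraries was ribosome-depleted and sequenced with strand information, per the labels' protocols. The splicing table deposited by the authors gives, per the file headers, PSI in percent and reads per site after and before a correction for mappable positions, as written by vast-tools. The authors' deposited expression table holds RPKM, log2 fold changes and p-values with FDR per hgRNA group; Salmon 1.10 and edgeR are named in the submitters' processing notes, and the genome build is not given in the sources used here. Positions were matched to GRCh38 with GENCODE 29: 85.6% of sites and 99.0% of acceptors were found there. Values of 2 libraries outside these groups were not used.

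For each event, limma 3.58.1 (R 4.3.3) was fitted to log2((site reads + 1)/(other reads + 1)) with a mean per hgRNA group and a variance trend. The 34 libraries shared the spread, and a library with under 20 reads at an event was left out of its fit. P-values were adjusted by Benjamini-Hochberg over all events tested. A moderated F test covered the 30 edited libraries. Members and gene lists were chosen with earlier results of these data known. Named were up to 6 called events per comparison whose libraries lie beyond the controls (or the other deletion), up to 2 with the smallest p where fewer than 2 were called, chosen events in edited and listed genes, and the events with the largest and smallest range. FLII, called with overlapping groups, and DLG1 and RPL19 were added after their values were seen. The fit was tested on simulated data. Alternatives were a pseudocount of 0.5, a minimum of 50 reads, own libraries only, a replicate block, a quasi-binomial model and leaving out each library. Site reads before the correction, adjustment over alternative 5-prime sites and leaving out 3 replicate 2 libraries were added after seeing the data. Python 3.11.15, numpy 2.4.6, pandas 2.3.3 and matplotlib 3.10.9 were used.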

Additional observations from a re-analysis of the deposited data

Results flagged for a closer look

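At called named sites 32 groups of libraries were considered, some of them of 2 libraries. Of those with 4 libraries, 2 held a library far from the other 3. Chance flags about 1 in 20 such groups, so the 2 flags may be chance. Groups of 2 libraries could not be examined in this way. CTSL site 1 had PSI of 51.28 in control hgRNA 1 replicate 2, while the other 3 controls were at 28.9 to 30.3, a gap of 0.936 of the whole range. WDR37 site 2 had PSI of 93.75 in FNBP4 deletion hgRNA 4 replicate 2, while the other 3 PTC exon libraries were at 100, so the gap is the whole range (1.0), and it rests on 1 read of 36.

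The 2 FNBP4 deletions differed from each other in 3 events by limma's test of that difference. The PTC exon deletion was lower by -13.04 points at IFITM10 site 3, by -11.62 at SH3BP5L site 3 and by -10.33 at CNBP site 1, with the adjusted p of each given above. All 4 libraries of one deletion lay below all 4 of the other in each event.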

How the results depend on the processing

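No named result changed direction in any setting run. Over named sites and settings 375 kept their side of the threshold, 98 lost the call and 11 gained it. With the replicate block, 33 named results kept their side of the threshold. The test over the edited groups then called 20 sites against 17 (0.119% against 0.105% of all events). Same-numbered replicates deviated together in 18 of 136 pairs of groups (correlation above 0.1, median 0.00769), among them the 6 pairs of knockouts (0.432 to 0.499) but not most pairs with the controls, so the numbers were not taken to pair the libraries. With the spread of own libraries only, the sites called were 13 in the DDX5 deletion, 0 in the DDX17 deletion, 11 in the FNBP4 intron deletion, 0 in the PTC exon deletion, 2 in the DDX5 knockout and 2 in the DDX17 knockout. The quasi-binomial model called 4 in the DDX17 deletion, 10 in the FNBP4 intron deletion, 2 in the HNRNPD deletion and 8 in the FNBP4 knockout. It called 6 under the HDAC7 knockout label and 3 between the FNBP4 deletions. Over the edited groups it called 64 sites (4.22%), and its share of all events rose to 0.585%. A minimum of 50 reads gave 4 in the PTC exon deletion, 0 in the FNBP4 knockout and 6 under the HDAC7 knockout label, with fewer sites tested. Over the edited groups it gave 10 sites (1.78%, and 0.13% of all events). A pseudocount of 0.5 gave 1 in the FNBP4 knockout. Adjusted over alternative 5-prime sites only, the PTC exon deletion had 17, the HDAC7 knockout label 17 and the FNBP4 contrast 12. Site reads before the correction gave 9 in the FNBP4 contrast. Without the 3 replicate 2 libraries, the DDX17 deletion had 1, the FNBP4 intron deletion 1, the PTC exon deletion 0, the HDAC7 deletion 1, the HNRNPD deletion 2, the DDX5 knockout 2 and the FNBP4 knockout 0. Leaving out each library in turn gave 4 to 10 sites in the DDX5 deletion, 0 to 9 in the DDX17 deletion, 0 to 2 in the FNBP4 intron deletion, 0 to 33 in the PTC exon deletion, 0 to 2 in the HDAC7 deletion, 0 to 2 in the HNRNPD deletion, 0 to 8 in the DDX5 knockout, 0 to 4 in the DDX17 knockout, 0 to 8 in the FNBP4 knockout, 4 to 10 under the HDAC7 knockout label and 2 to 28 between the FNBP4 deletions. The highest counts, 33 and 28, came without FNBP4 deletion hgRNA 3 replicate 2, and the cause of these changes was not tested. The test over the edited groups was not repeated without each library. Without the 2 edited ones of the 3 replicate 2 libraries it called 25 of 1670 sites in 14 events (1.5%, and 0.138% of all events). For the other counts of this paragraph no share of all events is given. They do not tell a change at these sites from one over all events. Libraries held a median of 40 to 67 reads per chosen event, and differences under 10 points were not called at any depth.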
